A study of Homo sapiens with 6 samples.

Results

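The 10 enzyme genes described here act on collagen after it is translated. They are the 5 lysyl oxidases (LOX, LOXL1, LOXL2, LOXL3 and LOXL4), the 3 lysyl hydroxylases (PLOD1, PLOD2 and PLOD3) and 2 alpha subunits of prolyl 4-hydroxylase (P4HA1 and P4HA2). They were chosen by symbol, 10 of the 23355 gene symbols in the count table, and all 10 were among the 14053 genes that passed the filter on low counts. RNA was sequenced from the fibroblast cell line HFL-1, derived from human fetal lung, 48 h after transfection with a non-targeting siRNA (siNTC) or with either of 2 siRNAs against TAZ (siTAZ #1 and siTAZ #2), to find genes that depend on TAZ, a transcriptional coactivator of the Hippo pathway encoded by WWTR1. Each of the 3 groups had 2 libraries, described as biological replicates, and all came from this single cell line with no other treatment given in the labels. With 2 libraries against 2, no permutation test can fall under 0.05, so the tests below rest on a spread estimated across genes and groups.

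Collagen chains are hydroxylated on prolines and lysines in the endoplasmic reticulum. Prolyl 4-hydroxylation makes the triple helix stable at body temperature, and lysyl hydroxylation prepares sites for sugars and for crosslinks. After secretion, the copper-dependent lysyl oxidases oxidise lysines and hydroxylysines so that neighbouring collagen or elastin molecules become covalently joined. In fibrotic lung these steps bear on how stiff the matrix is and how well it resists breakdown.

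The targeted gene was lower with both siRNAs. WWTR1 was at 132 and 131 CPM with siNTC, 26.4 and 28.4 CPM with siTAZ #1, and 46.1 and 43.1 CPM with siTAZ #2, where CPM (TMM-normalized CPM) puts a gene's counts on 1 scale for libraries of unequal depth. The log2 fold change was -2.26 (SE 0.10, FDR = 0.00062) with siTAZ #1 and -1.56 (SE 0.10, FDR = 0.00068) with siTAZ #2. FDR is the p-value of edgeR's quasi-likelihood test after Benjamini-Hochberg adjustment over all genes tested, and a gene was called at an FDR under 0.05. Libraries held 15648055 to 32078188 counts. In replicate 2 of siTAZ #1, counts were nearly missing for the genes from RANGAP1 on chromosome 22 through the end of Y, and 0 of the 10 enzyme genes lie there. All 7 fibroblast markers were above 1 CPM and summed to 7320 to 7850 CPM with siNTC, 6990 to 7280 with siTAZ #1 and 5680 to 6200 with siTAZ #2. VIM made up most of that sum and was at 0.79 and 0.742 of the control level with siTAZ #1 and siTAZ #2 (FDR = 0.093 and 0.04). PDGFRA rose with siTAZ #1 (3.3-fold, FDR = 0.00084) and THY1 with siTAZ #2 (1.41-fold, FDR = 0.01). PDGFRB rose with both (1.31-fold, FDR = 0.02, and 1.46-fold, FDR = 0.0051). DCN and LUM fell with both siRNAs, to 0.631 and 0.688 of the control level with siTAZ #1 (FDR = 0.01 and 0.027). With siTAZ #2 they were at 0.331 and 0.263 (FDR = 0.00072 and 0.00066). S100A4 was called with neither siRNA. Of the markers of other cell types, 1 of 7 for epithelium (EPCAM), 2 of 6 for endothelium (VWF and TEK) and 1 of 6 for leukocytes (CD68) were above 1 CPM. None of these markers was at 0 in all libraries. The endothelial sums were 42.1 to 42.7, 46.4 to 47.4 and 26.7 to 31.4 CPM in the same order of groups, the leukocyte sums 74.2 to 75.3, 69.3 to 75.9 and 38.2 to 49.3 CPM, and the epithelial sums 2.02 to 2.09, 0.903 to 1.63 and 2.84 to 3.18 CPM. Nearly all of the leukocyte sum came from CD68 (mean 74.45 CPM with siNTC), and nearly all of the endothelial sum from TEK (41.08 CPM). These sums thus follow single genes rather than the lists. The part of these markers in the results was not tested. In bulk RNA, fewer cells of a type and less RNA per cell cannot be told apart.

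In control cells the transcripts were uneven within each family. Per kilobase of transcript, LOXL2 was the most abundant of the 10 genes with siNTC, at 203 ± 6.89 CPM per kilobase (SD, n = 2). PLOD1 followed at 134 ± 0.123, PLOD3 at 101 ± 1.17 and P4HA1 at 54.6 ± 2.82. LOXL1 (43.4 ± 4.04), LOX (42.0 ± 0.878) and P4HA2 (40.2 ± 0.175) lay close together, and the libraries of LOXL1 and LOX overlapped. LOXL4 (14.9 ± 0.434), LOXL3 (13.2 ± 0.285) and PLOD2 (12.5 ± 2.16) were the lowest, and those of LOXL3 and PLOD2 overlapped. With siTAZ #1 the order was led by PLOD1 at 191 ± 3.47 CPM per kilobase, ahead of LOXL2 at 164 ± 13.1. With siTAZ #2, LOXL2 was again first at 388 ± 39.0, and LOXL1 came next after PLOD1 and PLOD3 at 75.1 ± 0.991. PLOD2, the last of the 10 in control cells, was above LOXL3 and LOXL4 with siTAZ #1 (29.4 ± 8.1), and with siTAZ #2 (39.0 ± 4.9) it overlapped LOX as well.

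**Figure D1:**
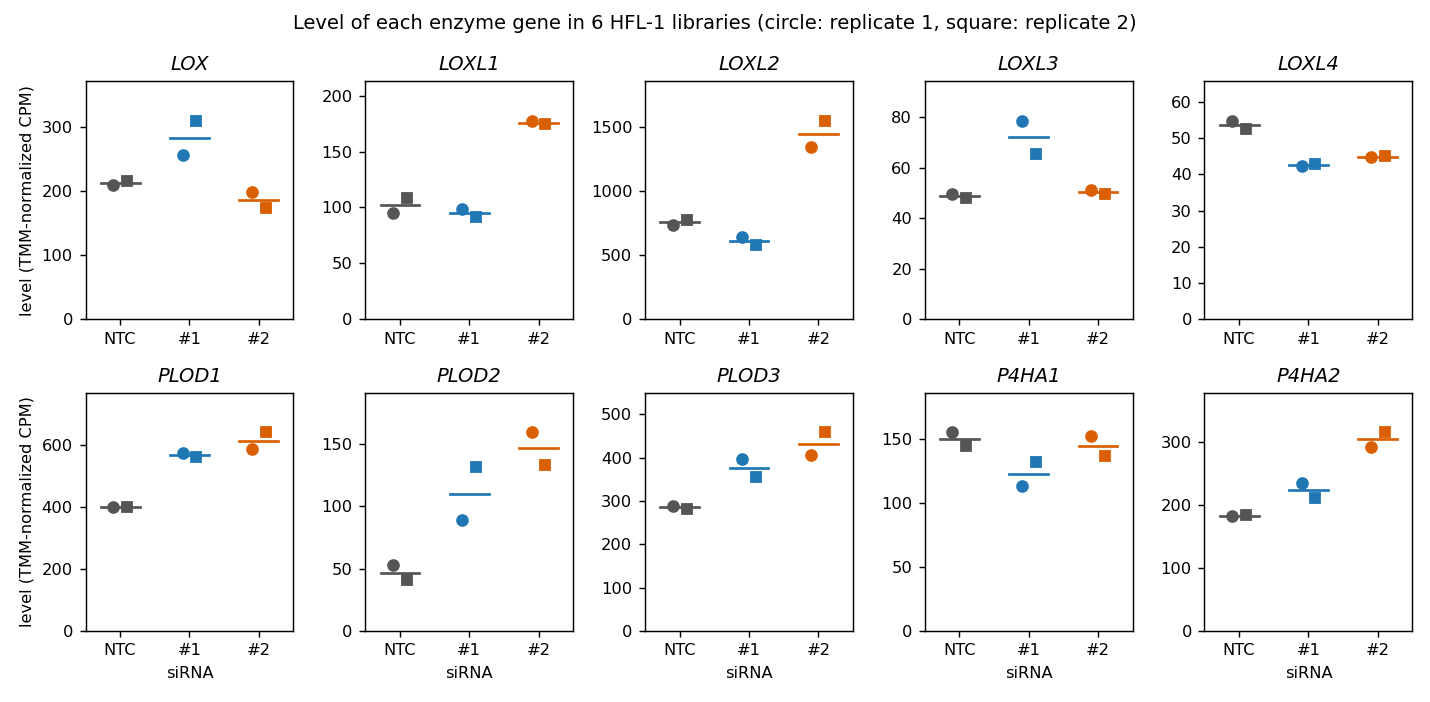
Level of each enzyme gene (TMM-normalized CPM, linear axes from 0, a separate axis per gene) in the 6 libraries, grouped by siRNA; circles are replicate 1, squares replicate 2, and the line is the mean of the 2 libraries. PLOD1, PLOD2, PLOD3 and P4HA2 have all 4 siTAZ libraries above both siNTC libraries, while LOXL1 and LOXL2 have libraries above the controls only with siTAZ #2.

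Against siNTC, 4 genes rose with siTAZ #1 (LOXL3, PLOD1, PLOD2 and PLOD3) and 6 with siTAZ #2 (LOXL1, LOXL2, PLOD1, PLOD2, PLOD3 and P4HA2). Over all genes tested, 10.8% were called higher and 9.78% lower with siTAZ #1, and 14.1% and 14.4% with siTAZ #2. In the fit of all 6 libraries and all 14053 genes without a GC offset, edgeR's quasi-likelihood test called 0 enzyme genes lower against siNTC. At an unadjusted p under 0.05 by the same test, 3 were lower and 6 higher with siTAZ #1, and 1 and 6 with siTAZ #2. The share of all genes at that threshold was not computed, so these counts cannot be set beside it. By sign alone, 4 were lower with siTAZ #1 and 3 with siTAZ #2, beside 6852 and 6897 of all 14053 genes. DESeq2 called 1 and 0 of the 10 lower, beside 1858 and 2535 of all 14053 genes. By edgeR's exact test on 4 libraries 0 and 0 were lower, beside 492 of 13710 and 3165 of 13754 genes. With the offset for GC content, 1 enzyme gene (P4HA1) was called lower and 5 higher with siTAZ #1, beside 1631 and 1624 of all 14053 genes. For the 10 genes the median log2 fold change was 0.34 (siTAZ #1) and 0.61 (siTAZ #2), beside 0.02 and 0.01 over all genes. Without the genes whose counts were nearly missing in replicate 2 of siTAZ #1, 7 enzyme genes were called with siTAZ #1, 5 higher (LOX in addition) and 2 lower (LOXL2 and LOXL4), and 6 with siTAZ #2, where 30.6% and 38.7% of all genes were called. Both comparisons share the siNTC libraries, so they are not independent. The siTAZ #1 libraries lay above both controls for 6 of the 10 genes and below both for 3 (33.2% and 31.1% of all genes, 64.3% together), and the siTAZ #2 libraries for 6 and 2 (36% and 35.5%, 71.4% together). All 4 siTAZ libraries lay above both siNTC libraries for 4 of the 10 genes (PLOD1, PLOD2, PLOD3 and P4HA2), as they did for 18.6% of all genes, and below both for LOXL4 alone, as for 17.5% of all genes.

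The 3 lysyl hydroxylases were called higher with both siRNAs, as were 5.49% of all genes, while 0 of the 10 enzyme genes and 3.74% of all genes were called lower with both. PLOD1 (lysyl hydroxylase 1, on GRCh37 chromosome 1, 11994262 to 12035595, plus strand) hydroxylates lysines of the helical part of fibrillar collagens. It was at 399 and 400 CPM with siNTC, 576 and 561 CPM with siTAZ #1, and 588 and 642 CPM with siTAZ #2. The 4 siTAZ libraries were thus all above the controls, which differed by less than 1 CPM. The log2 fold change was 0.51 (SE 0.08, FDR = 0.0096, 1.42-fold) with siTAZ #1 and 0.62 (SE 0.08, FDR = 0.0037, 1.54-fold) with siTAZ #2.

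PLOD2 (lysyl hydroxylase 2, chromosome 3, 145752926 to 145881512, minus strand) hydroxylates the telopeptide lysines from which the most stable crosslinks are built, and its expression is known to rise in fibrosis and in hypoxia. It had the largest change of the 10 genes with each siRNA. Its level was 52.4 and 41.0 CPM with siNTC, 88.7 and 132 CPM with siTAZ #1, and 159 and 133 CPM with siTAZ #2. The groups with and without siTAZ did not overlap, but the siTAZ #1 replicates were further apart than those of the other groups. The log2 fold change was 1.24 (SE 0.23, FDR = 0.016, 2.36-fold) with siTAZ #1 and 1.65 (SE 0.23, FDR = 0.0049, 3.13-fold) with siTAZ #2. The standard error was the largest of the 10 genes, and the lowest count behind these values was 649 reads, in replicate 2 of siNTC.

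PLOD3 (chromosome 7, 100849258 to 100861701, minus strand) encodes the lysyl hydroxylase that also attaches sugars to hydroxylysine. It was at 287 and 282 CPM with siNTC, 397 and 356 CPM with siTAZ #1, and 407 and 458 CPM with siTAZ #2, again with all 4 siTAZ libraries above the controls. It rose by a log2 fold change of 0.40 (SE 0.10, FDR = 0.036, 1.32-fold) with siTAZ #1 and 0.60 (SE 0.10, FDR = 0.0079, 1.52-fold) with siTAZ #2. PLOD3 has a GC content of 61.4%. The 1532 genes tested with 60% to 65% had median log2 fold changes of 0.02 (siTAZ #1) and 0.29 (siTAZ #2). With an offset for GC content, the siTAZ #1 values were 0.56 (PLOD1), 1.02 (PLOD2) and 0.39 (PLOD3), all still called. With siTAZ #2 the 3 genes also kept their call under this offset. The PLOD3 value with siTAZ #2 then lay close to that with siTAZ #1 (siTAZ #1 minus siTAZ #2 difference 0.03), below the 0.60 of the main fit. Under this offset, 23.2% (siTAZ #1) and 30.4% (siTAZ #2) of all genes were called. Across the alternatives described below, the lowest PLOD3 value with siTAZ #2 was 0.35. In none of the 3 genes did the siRNAs differ from each other past the threshold. The siTAZ #1 minus siTAZ #2 difference in log2 level was -0.11 (95% interval -0.31 to 0.08, FDR = 0.33) for PLOD1, -0.41 (-0.95 to 0.13, FDR = 0.23) for PLOD2 and -0.20 (-0.44 to 0.04, FDR = 0.18) for PLOD3. The PLOD2 difference was -0.72 and called (FDR = 0.00096) without replicate 2 of siTAZ #1, -0.15 (FDR = 0.46) without replicate 1, and -0.58 and called (FDR = 0.035) with an offset for GC content. That of PLOD3 was -0.28 and called (FDR = 0.048) without replicate 1 of siTAZ #1, -0.12 (FDR = 0.44) without replicate 2, and 0.03 with the GC offset.

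**Figure D2:**
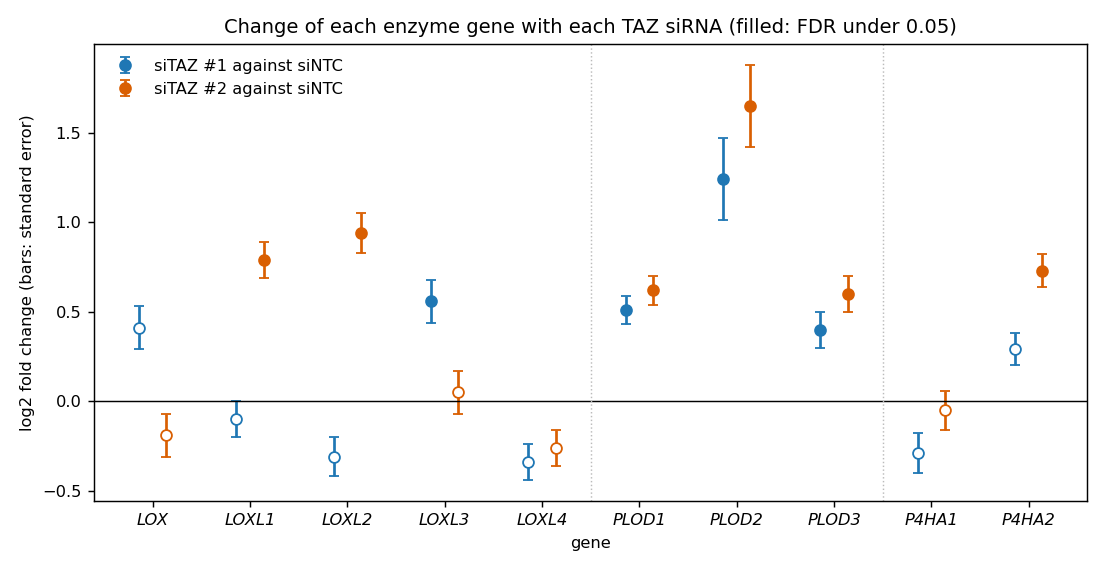
Log2 fold change of each enzyme gene against siNTC (bars, standard error of edgeR's quasi-likelihood fit) for siTAZ #1 (blue) and siTAZ #2 (orange); filled points have an FDR under 0.05, and dotted lines part the 3 families. The 3 PLOD genes are filled on both sides, between 0.40 and 1.65, whereas LOX, LOXL1 and LOXL2 lie on opposite sides of 0 with the 2 siRNAs.

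These calls rested on both control libraries. Without replicate 1 or replicate 2 of siNTC, 0 of the 10 genes were called with siTAZ #1 (FDR = 0.10 and 0.10 for PLOD1, 0.075 and 0.12 for PLOD2, 0.19 and 0.21 for PLOD3), while over all genes the share called went from 20.6% to 4% and 3.8%. LOXL3, the other gene called with siTAZ #1 in the main fit, had log2 fold changes of 0.58 and 0.53 in these fits. By edgeR's exact test on 4 libraries, PLOD2 alone was called with siTAZ #1 (FDR = 0.025, against 0.37 for PLOD1 and 0.55 for PLOD3). The PLOD3 call with siTAZ #1 was also lost without either siTAZ #2 library (0.40, FDR = 0.055, and 0.39, FDR = 0.063). With siTAZ #2, PLOD1 (FDR = 0.053 and 0.054) and PLOD3 (FDR = 0.076 and 0.083) lost the call without either siNTC library, PLOD2 without replicate 2 of siNTC (FDR = 0.051), and PLOD3 also without replicate 2 of siTAZ #2 (FDR = 0.059). The log2 fold changes in these fits were 0.60 and 0.61 for PLOD1, 0.60, 0.57 and 0.49 for PLOD3, and 1.46 for PLOD2. Over all genes the share called with siTAZ #2 was 9.59% and 9.08% without replicate 1 and replicate 2 of siNTC. Without replicate 1 and replicate 2 of siNTC, the log2 fold changes with siTAZ #1 were 0.50 and 0.50 for PLOD1, 1.42 and 1.06 for PLOD2, and 0.41 and 0.38 for PLOD3. Without replicate 1 and replicate 2 of siTAZ #1, that of PLOD2 was 1.49 and 0.92 and still called.

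Since the 3 PLOD genes were called in the same direction with both siRNAs, their promoters are shown, as the 250 bases upstream of the RefSeq start, read 5′ to 3′ on the gene's strand from GRCh37. Capitals mark a GC box (GGGCGG or its complement CCGCCC, bound by SP family factors) or the core of a hypoxia response element (ACGTG or its complement CACGT).
PLOD1 chr1:11994524-11994773, plus strand: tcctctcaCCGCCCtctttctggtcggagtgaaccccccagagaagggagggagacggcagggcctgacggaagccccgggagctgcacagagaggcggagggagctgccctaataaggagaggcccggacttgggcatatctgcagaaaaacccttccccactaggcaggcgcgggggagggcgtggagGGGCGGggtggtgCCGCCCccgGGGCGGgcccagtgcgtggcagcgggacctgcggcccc
PLOD2 chr3:145878972-145879221, minus strand: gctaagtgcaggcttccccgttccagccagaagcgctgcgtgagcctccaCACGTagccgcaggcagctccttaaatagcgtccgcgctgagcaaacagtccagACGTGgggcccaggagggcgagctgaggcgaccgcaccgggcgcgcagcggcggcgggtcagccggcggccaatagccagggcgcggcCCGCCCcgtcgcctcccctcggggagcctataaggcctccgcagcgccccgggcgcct
PLOD3 chr7:100860863-100861112, minus strand: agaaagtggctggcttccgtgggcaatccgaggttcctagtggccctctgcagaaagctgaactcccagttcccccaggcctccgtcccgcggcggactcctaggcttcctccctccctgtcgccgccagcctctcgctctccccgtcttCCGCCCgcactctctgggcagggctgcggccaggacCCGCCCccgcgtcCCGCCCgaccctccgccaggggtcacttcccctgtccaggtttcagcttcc
The starts used by RefSeq lie 512, 2541 and 839 bases downstream of the outermost gene start in the GENCODE annotation for PLOD1, PLOD2 and PLOD3. The windows held 70.4%, 72.4% and 69.2% G and C. Searched on both strands, GGGCGG occurred 4 times for PLOD1, 1 time for PLOD2 and 3 times for PLOD3, and was present in 42.6% of the 35116 RefSeq windows of this length. The letters ACGTG occurred 2 times for PLOD2 and not for the others, against 18.5% of all windows with at least 1 match. GGAATG, the letters most often bound by TEAD factors, the DNA-binding partners of TAZ, was in none of the 3 windows and in 11.9% of all windows. Among the other enzyme genes with an entry, ACGTG was in 3 LOX windows and in that of P4HA1, and GGAATG in 1 of 2 windows of LOXL3. A match is a match of letters only, and these windows are a small part of the sequence that may bear on a gene.

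The prolyl 4-hydroxylase alpha subunits carry the catalytic site and pair with protein disulfide isomerase (P4HB). Between the 2 genes, P4HA2 was higher in all 4 siTAZ libraries and P4HA1 was not. P4HA2 (chromosome 5, 131525840 to 131631008, minus strand) was at 182 and 183 CPM with siNTC, 235 and 210 CPM with siTAZ #1, and 293 and 315 CPM with siTAZ #2. It rose with siTAZ #2 (log2 fold change 0.73, SE 0.09, FDR = 0.0033, 1.66-fold), whereas with siTAZ #1 the log2 fold change was 0.29 (SE 0.09, FDR = 0.074). The difference between the siRNAs was itself past the threshold (-0.45, SE 0.09, FDR = 0.015). That difference lost its call without either siNTC library (-0.44 and -0.44) or either siTAZ #2 library (-0.50 and -0.38), with FDR from 0.051 to 0.099. The siTAZ #1 change was 0.36 and called (FDR = 0.018) without replicate 2 of siTAZ #1, and 0.20 (FDR = 0.16) without replicate 1.

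P4HA1 (chromosome 10, 74766975 to 74856732, minus strand), the more widely expressed alpha subunit, was at 155 and 144 CPM with siNTC, 114 and 132 CPM with siTAZ #1, and 152 and 137 CPM with siTAZ #2. The siTAZ #1 libraries were below the controls and those of siTAZ #2 overlapped them. Neither change passed the test (log2 fold change -0.29, SE 0.11, FDR = 0.12, and -0.05, SE 0.11, FDR = 0.77), and the difference between siRNAs was -0.24 (95% interval -0.50 to 0.03, FDR = 0.16). Both the siTAZ #1 change (-0.40, FDR = 0.023) and the difference (-0.34, FDR = 0.037) were called without replicate 2 of siTAZ #1, and they were -0.19 (FDR = 0.25) and -0.13 (FDR = 0.43) without replicate 1. With an offset for GC content both were called (-0.42, FDR = 0.01, and -0.38, FDR = 0.011). Of the P4HA1 and P4HA2 transcripts per kilobase, P4HA2 made up 42.4% ± 1.37 with siNTC, 52.3% ± 4.57 with siTAZ #1 and 55.9% ± 3.17 with siTAZ #2 (SD, n = 2). The 4 siTAZ libraries exceeded the 2 controls by 11.7 percentage points on average, with a two-sided exact permutation p of 0.133, the smallest that 2 against 4 libraries can give.

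Among the lysyl oxidases, which genes changed depended on the siRNA. LOXL1 and LOXL2 rose with siTAZ #2 and LOXL3 with siTAZ #1, and 4 of the 5 genes differed between the siRNAs. LOXL2 (chromosome 8, 23154410 to 23282841, minus strand), an enzyme that crosslinks type IV and fibrillar collagens and is raised in lung fibrosis, was at 737 and 773 CPM with siNTC, 644 and 575 CPM with siTAZ #1, and 1341 and 1547 CPM with siTAZ #2. The siTAZ #1 libraries were below both controls and the siTAZ #2 libraries far above them. The log2 fold change was -0.31 (SE 0.11, FDR = 0.094) with siTAZ #1 and 0.94 (SE 0.11, FDR = 0.0027, 1.91-fold) with siTAZ #2. The difference between the siRNAs was -1.24 (SE 0.11, FDR = 0.0013), so the level with siTAZ #1 was 0.422 of that with siTAZ #2. The siTAZ #1 change was -0.39 and called (FDR = 0.0046) without replicate 1 of siTAZ #1, and -0.23 (FDR = 0.11) without replicate 2.

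LOXL1 (chromosome 15, 74218330 to 74244478, plus strand), the family member known for elastic fibre assembly, was at 95.2 and 109 CPM with siNTC, 98.7 and 91.7 CPM with siTAZ #1, and 178 and 174 CPM with siTAZ #2. With siTAZ #1 the libraries overlapped the controls (log2 fold change -0.10, SE 0.10, FDR = 0.51), and with siTAZ #2 the gene rose (0.79, SE 0.10, FDR = 0.0033, 1.73-fold). The difference was -0.89 (SE 0.10, FDR = 0.0024). LOXL1 has the highest GC content of the 10 transcripts, 67.0%, and the 484 genes tested with a GC content of at least 65% had median log2 fold changes of 0.25 (siTAZ #1) and 0.58 (siTAZ #2). With an offset for GC content, the rise with siTAZ #2 was 0.21 (FDR = 0.16) and no longer called, and the difference between the siRNAs was -0.53 and still called.

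LOX (chromosome 5, 121398890 to 121414108, minus strand), the founding member, went the other way. It was at 210 and 216 CPM with siNTC, 257 and 310 CPM with siTAZ #1, and 199 and 173 CPM with siTAZ #2. The siTAZ #1 libraries were above and the siTAZ #2 libraries below the controls, but neither passed the test (log2 fold change 0.41, SE 0.12, FDR = 0.063, and -0.19, SE 0.12, FDR = 0.28). The siRNAs differed from each other by 0.61 (SE 0.12, FDR = 0.015), a call lost without replicate 2 of siTAZ #2, where the difference was 0.52 (FDR = 0.089). The siTAZ #1 change was 0.54 and called (FDR = 0.00082) without replicate 1 of siTAZ #1, and 0.27 (FDR = 0.1) without replicate 2.

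LOXL3 (chromosome 2, 74759385 to 74782817, minus strand), a lysyl oxidase with scavenger receptor domains like those of LOXL2, was at 49.5 and 48.0 CPM with siNTC, 78.7 and 65.5 CPM with siTAZ #1, and 51.4 and 49.5 CPM with siTAZ #2. It rose with siTAZ #1 (log2 fold change 0.56, SE 0.12, FDR = 0.028, 1.48-fold), and with siTAZ #2, where the libraries overlapped the controls, the value was 0.05 (SE 0.12, FDR = 0.81). The difference was 0.52 (SE 0.12, FDR = 0.028). Both calls were lost when either siNTC or either siTAZ #2 library was left out, with log2 fold changes of 0.53 to 0.58 and differences of 0.50 to 0.54. Of the bases in LOXL3 exons, 20.7% overlap exons of HTRA2 on the opposite strand. HTRA2 had a log2 fold change of 0.62 (FDR = 0.043) with siTAZ #1 and 0.24 (FDR = 0.29) with siTAZ #2. The strand setting and mode of the counting are not given in the sources used here, so how reads in the overlapping part were assigned is not known. For the other 9 genes, overlaps with exons of other genes covered at most 9.21% of their exons.

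LOXL4 (chromosome 10, 100007447 to 100027951, minus strand) was the lysyl oxidase with lower levels in all 4 siTAZ libraries. It was at 54.8 and 52.6 CPM with siNTC, 42.4 and 42.8 CPM with siTAZ #1, and 44.8 and 45.1 CPM with siTAZ #2. The gap to the controls was larger than the spread within any group, but neither change passed the test (log2 fold change -0.34, SE 0.10, FDR = 0.074, and -0.26, SE 0.10, FDR = 0.12). The difference between the siRNAs was -0.08 (95% interval -0.33 to 0.18, FDR = 0.63).

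In the direct comparison of siTAZ #1 with siTAZ #2, 5 of the 10 genes were called, 3 lower (LOXL1, LOXL2 and P4HA2) and 2 higher (LOX and LOXL3) with siTAZ #1. Over all genes, 28.6% were called, 13.4% lower and 15.2% higher. The median difference of the 10 genes was -0.22, beside -0.01 over all genes. The libraries of the siRNAs did not overlap for any of the 10 genes, with siTAZ #1 lower for 8 and higher for 2, compared with 65.6% of all genes (33% lower and 32.6% higher). Leaving out a library gave 2 to 7 calls, with 3 without either siNTC library or without replicate 1 of siTAZ #2, and 2 without replicate 2 of siTAZ #2, while the share called over all genes ran from 12.3% to 38.6%. WWTR1 itself was lower with siTAZ #1 than with siTAZ #2 by 0.70 on the log2 scale (27.4 against 44.6 CPM).

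In the makeup of the lysyl oxidase family, the shares of LOXL2, LOX and LOXL3 moved in opposite directions with the siRNAs, while that of LOXL4 was lower with both. Of the summed CPM per kilobase of the 5 genes, LOXL2 made up 64.1% ± 0.068 with siNTC, 56.1% ± 2.53 with siTAZ #1 and 73.7% ± 2.65 with siTAZ #2 (SD, n = 2). The share of LOX was 13.3% ± 0.187, 19.2% ± 3.21 and 7.01% ± 1.15 in the same order, and that of LOXL3 was 4.18% ± 0.237, 6.69% ± 0.626 and 2.61% ± 0.238. LOXL1 made up 13.7% ± 0.795, 13.9% ± 0.225 and 14.3% ± 1.12. The share of LOXL4 was 4.73% ± 0.303, 4.06% ± 0.17 and 2.38% ± 0.144, lower in all 4 siTAZ libraries (mean difference -1.5 percentage points, exact permutation p = 0.133). A share also moves with the family sum, which was 309 and 324 CPM per kilobase with siNTC and 502 and 550 with siTAZ #2. LOXL3 itself was at 13.2 with siNTC and 13.7 with siTAZ #2, and LOXL4 at 14.9 and 12.5. With the siRNAs pooled, the shares of LOX, LOXL1, LOXL2 and LOXL3 differed from the controls by -0.156, 0.395, 0.798 and 0.467 percentage points (exact permutation p = 1, 0.667, 0.933 and 0.8). Among the lysyl hydroxylases, PLOD2 went from 5.02% ± 0.809 of the transcripts to 8.32% ± 2.42 and 9.83% ± 1.74 (4.05 points, exact permutation p = 0.133).

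**Figure D3:**
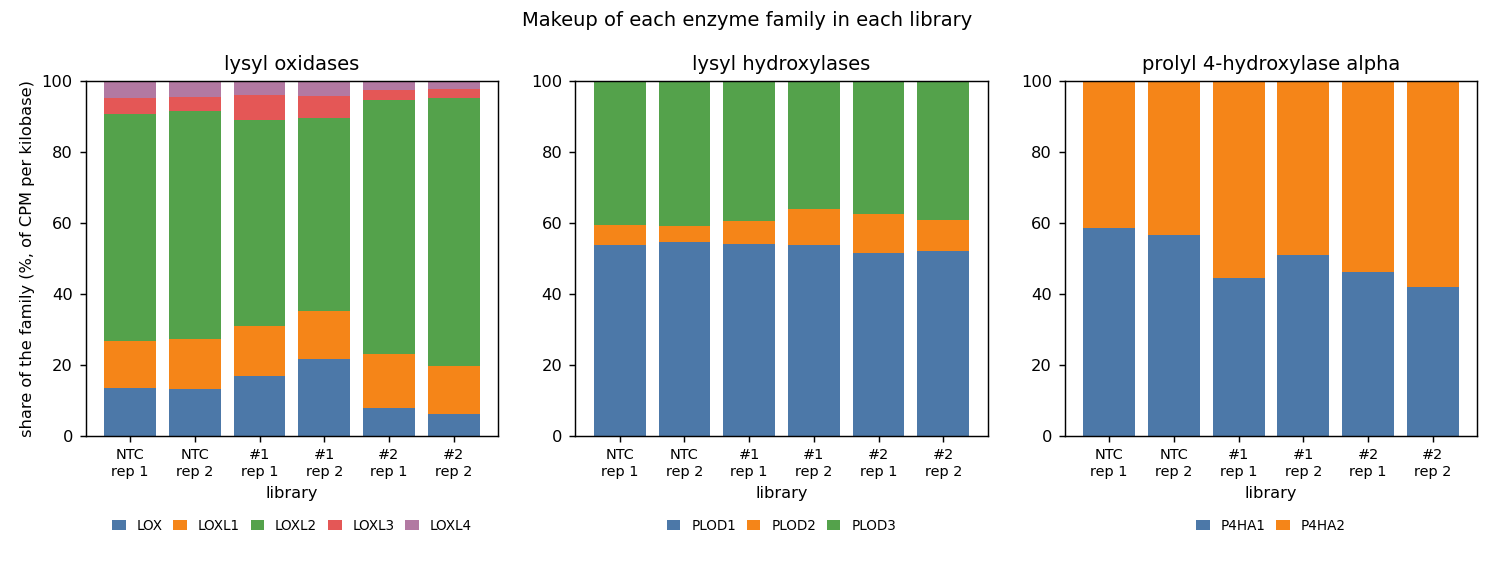
Share of each gene (%) in the summed CPM per kilobase of its family, for each of the 6 libraries; each stack adds to 100%. In the left panel the LOXL2 part is smallest with siTAZ #1 and largest with siTAZ #2, in the middle panel the PLOD2 part is larger in the siTAZ libraries, and in the right panel the P4HA2 part is larger in each siTAZ library than in either siNTC library.

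The enzymes were also set beside their main substrate, type I collagen, in the same library. The sum of COL1A1 and COL1A2 was 3921 and 4131 CPM per kilobase with siNTC, 2286 and 2060 with siTAZ #1, and 3091 and 3392 with siTAZ #2. The 5 lysyl oxidases together gave 309 and 324, 299 and 284, and 502 and 550 CPM per kilobase in the same order. Per 100 of the collagen sum, lysyl oxidase transcripts were thus 7.87 and 7.85 with siNTC, 13.1 and 13.8 with siTAZ #1, and 16.2 and 16.2 with siTAZ #2. The ratio was higher in all 4 siTAZ libraries, with a mean log2 difference of 0.91 (two-sided exact permutation p = 0.133 over 15 splits, the smallest possible). With siTAZ #1 the collagen sum was lower while the lysyl oxidase sum was close to that of the controls, and with siTAZ #2 the collagen sum was lower and the lysyl oxidase sum higher. For the 3 lysyl hydroxylases the ratio was 6.37 and 5.94 with siNTC, 15.7 and 17.0 with siTAZ #1, and 12.4 and 12.2 with siTAZ #2.

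**Figure D4:**
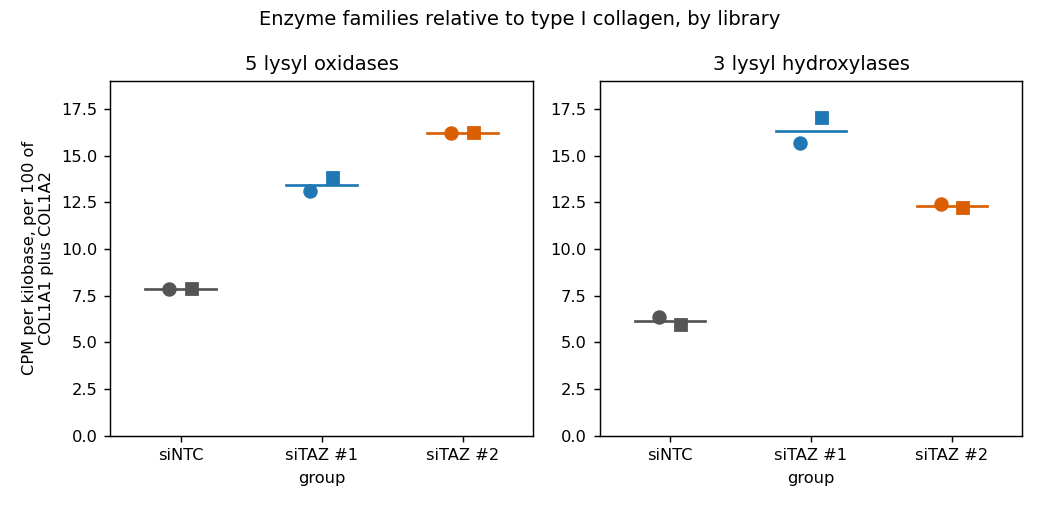
Summed CPM per kilobase of the 5 lysyl oxidases (left) and the 3 lysyl hydroxylases (right) per 100 CPM per kilobase of COL1A1 plus COL1A2, by group; circles are replicate 1, squares replicate 2, lines are means of 2 libraries, and the axes start at 0. Both ratios are higher in all 4 siTAZ libraries, with the lysyl oxidases highest with siTAZ #2 and the lysyl hydroxylases highest with siTAZ #1.

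Of the 7 substrate genes, 5 fell with siTAZ #1 (median -0.71), and 4 fell and 2 rose with siTAZ #2 (median -0.31). COL1A2 and COL5A2, chains of type I and type V collagen, fell with both (log2 fold change -1.01 and -0.77 for COL1A2, FDR = 0.0071 and 0.012, and -0.55 and -0.31 for COL5A2, FDR = 0.0069 and 0.03). COL1A1 fell with siTAZ #1 (-0.72, FDR = 0.0062) and was at 0.20 (FDR = 0.17) with siTAZ #2. COL5A1 and ELN, the gene of elastin, fell with siTAZ #1 (-0.72, FDR = 0.0032, and -0.71, FDR = 0.017) and rose with siTAZ #2 (0.71, FDR = 0.0021, and 1.16, FDR = 0.0027). COL3A1 and COL5A3 were called with siTAZ #2 alone (-0.43, FDR = 0.04, and -1.37, FDR = 0.0041), at -0.27 (FDR = 0.16) and 0.06 (FDR = 0.84) with siTAZ #1.

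Other genes of the same pathway were counted from lists. Of 8 genes of prolyl hydroxylation and its complexes, 1 fell and 2 rose with siTAZ #1, and 3 rose with siTAZ #2, with medians of 0.21 and 0.30. P4HA3, a further alpha subunit of prolyl 4-hydroxylase, rose with both siRNAs. It was at 11.6 and 12.9 CPM with siNTC, 31.2 and 31.7 CPM with siTAZ #1, and 36.6 and 35.3 CPM with siTAZ #2 (log2 fold change 1.36, SE 0.13, FDR = 0.0023, and 1.55, SE 0.13, FDR = 0.0011). Of 8 chaperones and glycosylating enzymes of procollagen, 2 fell and 2 rose with siTAZ #1, and 2 fell and 1 rose with siTAZ #2 (medians -0.11 and -0.31). FKBP10, a prolyl isomerase that assists lysyl hydroxylase 2, fell with both siRNAs (-0.36, FDR = 0.044, and -0.45, FDR = 0.018), in the direction opposite to PLOD2.

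Of 5 listed genes for the export of procollagen from the endoplasmic reticulum, 3 fell with siTAZ #1 and 4 with siTAZ #2. The other 2 and 1 were not called, and the medians of the 5 were -0.36 and -0.44. Over all genes tested, 9.78% and 14.4% were called lower. KLHL12, an adaptor that enlarges COPII coats, fell by 1.11 and 0.70 on the log2 scale (FDR = 0.0055 and 0.016). SEC23A, an inner coat subunit, fell by 0.43 and 0.73 (FDR = 0.015 and 0.0023), and TFG, which organises exit sites, by 0.36 and 0.31 (FDR = 0.033 and 0.04). For removal of the propeptides, 5 of 8 genes were tested, of which 1 fell and 1 rose with siTAZ #1 and 2 rose with siTAZ #2. Of 5 genes that supply copper, ascorbate or zinc, 1 rose with each siRNA. ATP7A, a copper transporter gene of that list, lies in the near-missing region (554 and 24 counts with siTAZ #1, log2 fold change -1.36, SE 1.32). Of the propeptide and cofactor lists, no gene was called the same way with both siRNAs by the quasi-likelihood test.

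PLOD2, P4HA1, P4HA2 and LOX are known as hypoxia-induced genes, so other such genes were counted. Of the 10 tested of 11 listed, 2 fell and 1 rose with each siRNA (medians -0.06 and 0.01). PGK1, a glycolytic enzyme gene, lies in the region with near-missing counts (4816 and 234 counts in replicate 1 and replicate 2 of siTAZ #1), and was not called with siTAZ #1 (log2 fold change -0.93, SE 1.32) or siTAZ #2 (-0.57, SE 1.31). With siTAZ #2 it was at 220.5 and 187 CPM, beside 306 and 300.5 CPM with siNTC. ADM, a vasodilator peptide, fell (-1.32, FDR = 9e-04, and -0.54, FDR = 0.007), as did SLC2A1, a glucose transporter (-0.69, FDR = 0.028, and -0.56, FDR = 0.04), and VEGFA, an angiogenic factor, rose (1.02, FDR = 0.0017, and 0.77, FDR = 0.0026). Of 7 canonical YAP/TAZ targets, 3 fell and 2 rose with siTAZ #1, and 2 fell with siTAZ #2, CTGF and AXL being lower with both.

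**Figure D5:**
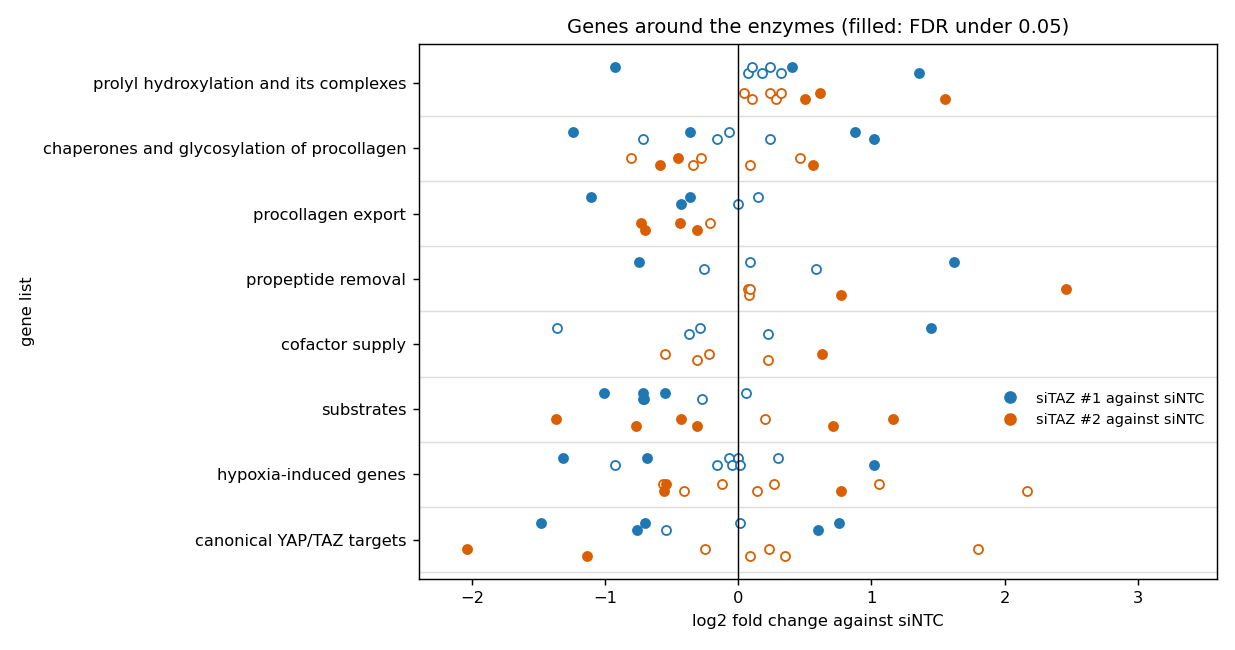
Log2 fold change against siNTC of each tested gene in 8 lists around the enzymes, with siTAZ #1 in blue (upper row of each list) and siTAZ #2 in orange (lower row); filled points have an FDR under 0.05. The filled points of procollagen export all lie below 0, and those of the substrates lie below 0 with siTAZ #1 and on both sides with siTAZ #2.

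The genes most like each lysyl hydroxylase over the 6 libraries, among 9872 genes with a mean of at least 10 CPM, were ranked by Pearson's r of log2 CPM. The 6 libraries form 3 groups and share their scaling, so r describes the order of the groups and was given no test. For PLOD1 these were GLG1 (r = 0.9971), KDELC1 (0.9968) and DNAJC5 (0.9963). For PLOD2 they were GNB4 (0.9995), IFIT5 (0.9986) and CCDC104 (0.9933), and for PLOD3 they were TP53TG1 (0.9968), HYOU1 (0.9964) and ST5 (0.995). A total of 28, 10 and 8 genes exceeded 0.99 with PLOD1, PLOD2 and PLOD3.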

How the data were processed

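Ion Proton reads were aligned by the authors to hg19 with TMAP and counted per gene with HTSeq 0.6.1, and the deposited values are raw read counts without normalization. The annotation is described as Ensembl, the table lists symbols, and the strand setting and counting mode are not given in the sources used here. Of 23368 entries, 13 carried a date in place of a symbol (0.0458% to 0.0506% of counts) and were left out. Counts were analysed in edgeR 4.0.16 (R 4.3.3). After filterByExpr by group and TMM normalization, 1 model with a term per group was fitted to the 6 libraries, contrasts were tested by quasi-likelihood, and p-values of the 14053 genes were adjusted by Benjamini-Hochberg. Each siRNA was compared with siNTC and with the other siRNA. Standard errors were computed from the F statistics, and the tests were tested on simulated data with 200 of 13475 genes changed 2-fold. There, 87.0% (siTAZ #1) and 89.5% (siTAZ #2) of the changed genes were called in the right direction, with 12 and 10 false calls. The simulation left out the near-missing region, which the main fit keeps, so it does not show how the main fit performs with that region. It also changed far fewer genes than were called in the data. Among the enzyme genes, only PLOD2 changed more than 2-fold. The rates do not describe smaller changes, such as the 1.32-fold rise of PLOD3 with siTAZ #1. Replicates differed by more than sampling noise (mean chi-square per gene 5.56, 91.59 and 11.88 for siNTC, siTAZ #1 and siTAZ #2). Positions, lengths and GC content are those of GENCODE lifted to GRCh37 (hg19), found for 21477 symbols, with lengths of the canonical transcript. Promoters came from RefSeq windows matched to GRCh37. Shares and ratios were compared by two-sided exact permutation tests.

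The enzyme genes and gene lists were chosen with earlier results of these data known. Named genes were all 10 enzymes, WWTR1, all substrates, up to 3 genes of each other list called the same way with both siRNAs, and the 3 genes most like each enzyme called with both. HTRA2 was named for its overlap with LOXL3. Alternatives were scaling by RLE, by upper quartile or by library totals, dropping the filter, a mean count of at least 50, DESeq2 1.42.0, edgeR's exact test, fits of 4 libraries, a replicate block, a fit without the near-missing region (RANGAP1 to the end of Y), a GC offset, leaving out each library, an FDR of 0.1, and shares without division by length. GC content was known for 95.5% of genes tested.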

Additional observations from a re-analysis of the deposited data

Results flagged for a closer look

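The siTAZ #1 and siTAZ #2 groups differed from each other in 5 of the 10 enzyme genes by edgeR's quasi-likelihood test of the difference itself, with Benjamini-Hochberg adjustment. LOX was higher with siTAZ #1 by 0.61 on the log2 scale (FDR = 0.015) and LOXL3 by 0.52 (FDR = 0.028). LOXL1 (-0.89, FDR = 0.0024), LOXL2 (-1.24, FDR = 0.0013) and P4HA2 (-0.45, FDR = 0.015) were lower with siTAZ #1. The groups do not overlap in any of these genes. They also differ in the depth of knockdown of WWTR1, and an effect of TAZ and an effect of an siRNA sequence cannot be told apart in this design.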

How the results depend on the processing

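Of 570 recomputed values for single enzyme genes (30 values under 19 alternatives), 495 kept their direction and their side of the threshold, 42 lost a call, 27 gained one and 6 changed sign. The rises of LOXL2 and P4HA2 with siTAZ #2 kept their call under all 19 (highest FDR 0.044 and 0.048), as did the differences between siRNAs of LOXL1 and LOXL2 (highest FDR 0.024 and 0.016). With siTAZ #1, 4 of the 10 enzyme genes were called (20.6% of all genes). The count of the 10 was 7 by DESeq2 (28% of all genes), 1 by edgeR's exact test (7.74%), 2 in a fit of 4 libraries (14.7%), 7 without the region from RANGAP1 to the end of Y (30.6%, where the common dispersion was 0.0164 in place of 0.0807), 8 at an FDR of 0.1, and 0 to 6 with a library left out (0 without either siNTC library, 2 without either siTAZ #2 library, 6 without either siTAZ #1 library). With a library left out, the spread of the lone library in its group is taken from the other groups. Calls lost in this way are given above. In the fits with a library left out, the share of all genes called with siTAZ #1 followed the same order as the count of the 10. It was lowest without either siNTC library, higher without either siTAZ #2 library and highest without either siTAZ #1 library. These counts thus do not set the enzyme genes apart from other genes. At an FDR of 0.1 the share of all genes was not computed, so that count cannot be set beside it. Under the 19 alternatives, log2 fold changes with siTAZ #1 were 0.48 to 0.56 (PLOD1), 0.92 to 1.49 (PLOD2), 0.32 to 0.48 (PLOD3) and 0.43 to 0.69 (LOXL3). With siTAZ #2 they were 0.51 to 0.68 (PLOD1), 1.46 to 1.82 (PLOD2), 0.35 to 0.68 (PLOD3), 0.21 to 0.87 (LOXL1), 0.8 to 1.03 (LOXL2) and 0.65 to 0.85 (P4HA2). Between the siRNAs, the count of 5 of the 10 was 2 by the exact test (10.7% of all genes) and 3 in a fit of 4 libraries (20%). The differences between siRNAs of LOXL4, PLOD1 and PLOD3, none of them called, changed sign with an offset for GC content, to 0.05, 0.05 and 0.03. With shares of the lysyl oxidases pooled over siRNAs, leaving out a library gave -2.95 to 2.15 percentage points for LOX (1.61 and 2.15 without either siTAZ #2 library), -0.167 to 0.957 for LOXL1 (-0.167 without replicate 1 of siNTC), -2.75 to 4.32 for LOXL2 (-1.51 and -2.75 without either siTAZ #2 library) and -0.361 to 1.2 for LOXL3 (-0.361 and -0.0661 without either siTAZ #1 library). The cause of these changes was not tested.

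With a replicate block, 2 genes were called with siTAZ #1 (LOXL3 at 0.56, FDR = 0.057, and PLOD3 at 0.40, FDR = 0.086, were not), 6 with siTAZ #2 and 4 between the siRNAs, and 12%, 19.6% and 20.4% of all genes. The correlation of same-numbered libraries' deviations from their group means was 0.02, -0.01 and -0.39 for siNTC with siTAZ #1, siNTC with siTAZ #2 and siTAZ #1 with siTAZ #2, so the numbers were not taken as pairs. Chosen after seeing the data, a crossed replicate block gave 5, 6 and 5 calls (18.7%, 26.8% and 27.7% of all genes). An offset for GC content without that region, also chosen after seeing the data, gave 9, 6 and 7 calls (33%, 40.5% and 39.1% of all genes), and the differences of LOXL4, PLOD1 and PLOD3 were 0.04, 0.04 and 0.02. The siTAZ minus siNTC difference in the log2 ratio of lysyl oxidases to type I collagen was 0.88 without division by length. This difference was 0.84 with exon-union lengths and 0.86 to 0.97 with a library left out. The last 2 alternatives were chosen after seeing the data. The lowest enzyme count was 649.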
